A study of Saccharomyces cerevisiae with 10 samples.

Results

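The molecular chaperone Hsp90 and the cochaperones that bind it were followed as 10 transcripts: *HSP82* and *HSC82*, which encode the chaperone itself, and *STI1*, *AHA1*, *HCH1*, *CPR6*, *CPR7*, *SBA1*, *CDC37* and *CNS1*. They were taken by gene identifier from the 6612 transcripts in the deposited tables, with earlier results of these data known. All 10 were measured in every library. The RNA came from 5 cultures of BY *UBR1* -469A>T and 5 cultures of BY, the laboratory strain of *Saccharomyces cerevisiae* that the labels call BY4741. BY *UBR1* -469A>T is BY edited at a single base of the promoter of *UBR1*, the gene of the ubiquitin ligase that recognizes N-degrons, so that it holds the base of the vineyard strain RM there. BY keeps its own base at this position, and no further allele separates the strains in the labels. The cultures, described as independent biological replicates, grew side by side in synthetic complete medium for about 7 h and were collected at an optical density close to 0.40. The growth protocol names no heat or other stress for either strain. The methods describe independently derived replicates of the edited strains. P values of exact permutation tests rest on the spread between these cultures. Those of edgeR rest on the spread left after the other terms of its fit, which are given below.

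Hsp90 is a dimer that opens and closes with ATP and brings a late stage of folding to kinases, transcription factors and other client proteins. Yeast carries a pair of Hsp90 genes, of which *HSC82* is known as the constitutive one and *HSP82* as the one that heat induces. At least 1 of them is needed for life. Cochaperones bind Hsp90 at different steps of its cycle: some deliver clients, some speed or slow the ATPase, and some are prolyl isomerases. Hsf1, the heat shock transcription factor, is known to keep many chaperone genes expressed and binds heat shock elements, inverted repeats of the unit GAA.

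*HSP82* and *HSC82* are so alike that the assignment of reads to each had to be examined first. *HSP82* (YPL240C) lies on the minus strand of chromosome XVI of the R64 assembly, from 96496 to 98625, and *HSC82* (YMR186W) on the plus strand of chromosome XIII, from 632355 to 634472. Each is a single coding exon. Their coding sequences share 1955 of 2115 aligned bases, or 92.4%. Kallisto, the program with which the authors assigned reads, works with words of 31 bases, and 325 such words were common to both transcripts, 15.5% of those of *HSP82* and 15.6% of those of *HSC82*. The longest run in common was 113 bases and the mean fragment implied by the effective lengths was 219 bases, so none of the possible fragments of that length lay wholly inside shared sequence. Shorter fragments were not examined. *HSP82* had estimated counts that were not whole, such as 23981.7 in BY replicate 1. How many of its reads were divided between transcripts was not tested. The stretch below is the window of 60 aligned bases without gaps that holds the most differences. The rest of the coding sequence differs less densely. It covers 60 bases of coding sequence, from base 1220 to 1279 of *HSP82* (chromosome XVI, 97347 to 97406, minus strand) and from base 1208 to 1267 of *HSC82* (chromosome XIII, 633562 to 633621, plus strand), with the 14 bases that differ in capitals.
HSP82: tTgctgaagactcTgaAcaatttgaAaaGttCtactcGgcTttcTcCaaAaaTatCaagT
HSC82: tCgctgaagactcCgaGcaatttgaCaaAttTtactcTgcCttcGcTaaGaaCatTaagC

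The other members shared no word of 31 bases with the coding sequence of another gene. *AHA1* and *HCH1*, whose proteins are related, were 70.3% identical over their aligned coding bases, and the cyclophilin genes *CPR6* and *CPR7* were 60.2% identical. Gap bases, which these percentages leave out, numbered 593 and 192 in these alignments, against 18 for *HSP82* and *HSC82*. The percentages are therefore not directly comparable with that of the Hsp90 pair. *STI1* (YOR027W) lies on chromosome XV from 381053 to 382822, *AHA1* (YDR214W) on IV from 892875 to 893927, *HCH1* (YNL281W) on XIV from 108467 to 108928, *CPR7* (YJR032W) on X from 491081 to 492262, *SBA1* (YKL117W) on XI from 220324 to 220974, *CDC37* (YDR168W) on IV from 790328 to 791848 and *CNS1* (YBR155W) on II from 549771 to 550928, all on the plus strand. *CPR6* (YLR216C) lies on the minus strand of XII from 572096 to 573211. Each of the 10 genes has 1 coding exon, so none offers splice forms that could trade reads.

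The reference sequence upstream of each gene was searched for heat shock element units because 6 of the members, *HSP82*, *HSC82*, *STI1*, *AHA1*, *HCH1* and *CPR6*, are known as targets of Hsf1. The search covered 500 bases before each start codon, on both strands, for TTCNNGAA, for GAANNTTC, and for 3-unit forms, in which the 2 motifs overlap in a shared GAA or TTC. A 3-unit form therefore counts for both shorter motifs as well. TTCNNGAA was present for 7 of the 10 members and upstream of 21.2% of 6000 yeast genes. GAANNTTC was present for 4 members and 19.2% of all genes, and a 3-unit form for 2 members, *STI1* and *AHA1*, and 1.48% of all genes. The 6 known Hsf1 targets each held TTCNNGAA. The 3-unit form farthest upstream, or the farthest match to TTCNNGAA where there was none, is shown for each of these 6 genes in 30 bases of the coding strand, with the matched letters in capitals.
HSP82: ttttcttttttTTCTAGAAcgccgtggaag
HSC82: ggcacttttctTTCTAGAAggtgaaagaac
STI1: ctgatatcTTCGTGAAGATTCgtgtagtat
AHA1: tcacaatgGAATTTTCTAGAAgaaaaaaca
HCH1: caggcctatttTTCTAGAAgacagaagaaa
CPR6: tttctatgagcTTCTAGAAtatttttccgc

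These windows lie at 98842 to 98871 of chromosome XVI for *HSP82*, 632127 to 632156 of XIII for *HSC82*, 380803 to 380832 of XV for *STI1*, 892566 to 892595 of IV for *AHA1*, 108290 to 108319 of XIV for *HCH1* and 573331 to 573360 of XII for *CPR6*. The same 8 letters, TTCTAGAA, recurred in 5 of the 6 windows, in *AHA1* inside its 3-unit form. *STI1* held a second 3-unit form 216 to 204 bases before its start codon. Of the other 4 members, *SBA1* had 1 match to TTCNNGAA and *CDC37* 1 match to GAANNTTC, while *CPR7* and *CNS1* had no match to any of the motifs in this window. The *CDC37* match began 492 bases before its start codon, beyond the 258 bases that separate *CDC37* from *TAF10*, and so within the coding sequence of its neighbor. A match to these letters is a description of the reference sequence, and binding was not measured.

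In TPM, the authors' measure of transcript abundance per length, the 10 members spanned a wide range. *HSC82* had 549.8 ± 50.4 TPM in BY *UBR1* -469A>T and 495 ± 66.9 in BY (SD, n = 5 each, here and in the next sentences). *SBA1*, the p23 protein that holds the closed, ATP-bound form of Hsp90, had 475 ± 39.1 in BY *UBR1* -469A>T and 518 ± 38.7 in BY. These genes were not clearly ordered: *HSC82* exceeded *SBA1* in 4 of 5 BY *UBR1* -469A>T libraries and in 3 of 5 BY libraries. *HCH1* followed with 209.9 ± 15.9 TPM in BY *UBR1* -469A>T and 184 ± 13.6 in BY. *HSP82* had 185 ± 10.5 TPM in BY *UBR1* -469A>T and 133 ± 41.8 in BY. *CPR6* had 145 ± 10.3 TPM in BY *UBR1* -469A>T and 130.3 ± 13.6 in BY, and *STI1* had 115 ± 3.70 in BY *UBR1* -469A>T and 107 ± 12.1 in BY. *AHA1* had 68.7 ± 3.66 TPM in BY *UBR1* -469A>T and 65.4 ± 4.89 in BY, and *CDC37* had 57.2 ± 1.39 in BY *UBR1* -469A>T and 60.5 ± 5.50 in BY. The least abundant members were *CPR7*, with 27.3 ± 2.69 TPM in BY *UBR1* -469A>T and 25.1 ± 1.61 in BY, and *CNS1*, with 19.0 ± 3.31 in BY *UBR1* -469A>T and 15.7 ± 3.40 in BY. *HSP82* exceeded *CPR6* in all 5 libraries of BY *UBR1* -469A>T and in 3 of 5 of BY, and *AHA1* exceeded *CDC37* in 5 of 5 and 3 of 5. *HCH1* exceeded *HSP82* in 4 of 5 libraries of BY *UBR1* -469A>T and 5 of 5 of BY, with overlapping ranges in both strains. Each of the other neighbors in this order differed the same way in all 10 libraries.

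Members were compared between the strains with edgeR's quasi-likelihood test over the 5986 transcripts with 10 or more estimated counts in each library. Values are counts scaled by library size and TMM factor (normalized CPM), and log2 fold changes are BY *UBR1* -469A>T over BY. The fit held 2 surrogate variables, which are patterns of variation estimated from the counts, and transcripts were called at a Benjamini-Hochberg adjusted p under 0.1. Of the 10 members, 7 were called, all higher in BY *UBR1* -469A>T, and 0 were called lower, with 8 members at an unadjusted p under 0.05. Among all transcripts tested, 24.8% were called, 13.8% higher and 11% lower in BY *UBR1* -469A>T. The median log2 fold change of the members was 0.16, beside 0.0012 over all transcripts. The calls depended on the covariates of the fit. With strain as the only term, 0 of 10 members and 0 transcripts in all were called, with 7 members and 1400 transcripts at an unadjusted p under 0.05. DESeq2 with 2 surrogate variables called 8 members and 26.7% of all transcripts. With 1 surrogate variable 0 members and 10 transcripts were called. Leaving out BY *UBR1* -469A>T replicate 2 left 2 members called, replicate 3 left 4, BY replicate 2 left 4 and BY replicate 5 left 3, and the share called among all transcripts in these fits was 8.35%, 12.3%, 14.2% and 6.79% in the same order.

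**Figure D1:**
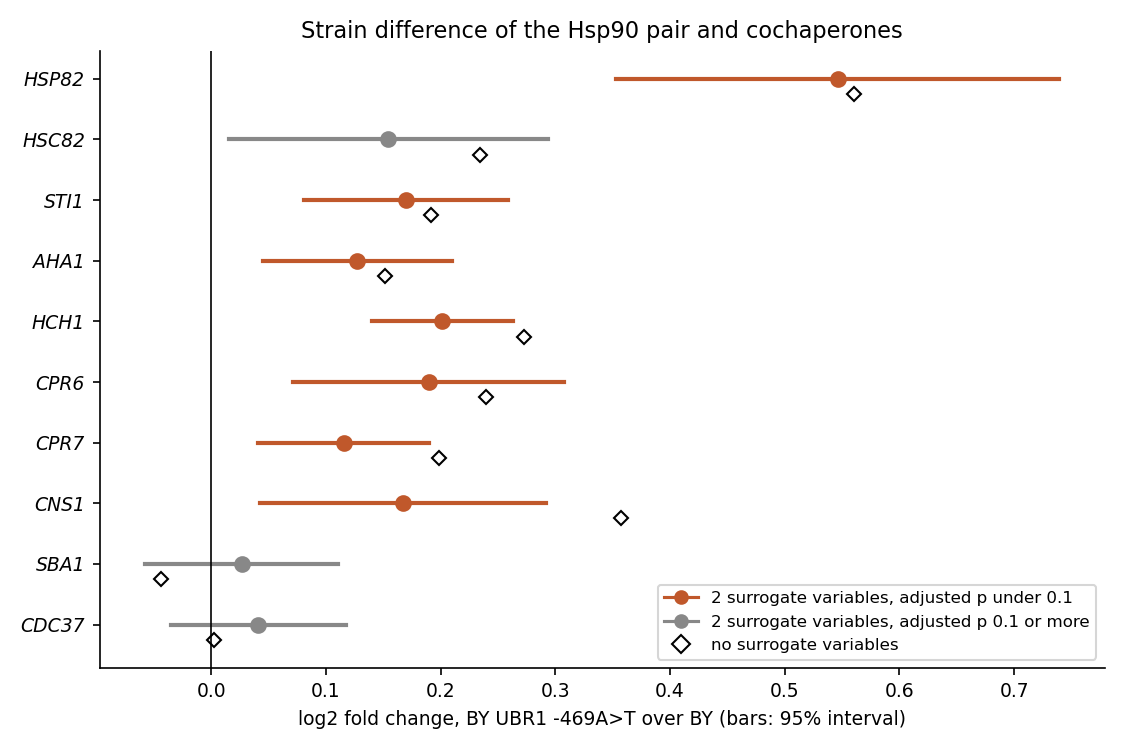
Strain difference of the Hsp90 pair and its cochaperones. The horizontal axis is the log2 fold change of BY *UBR1* -469A>T over BY, filled circles with bars are the fit with 2 surrogate variables and its 95% interval, in orange where the adjusted p was under 0.1 and gray otherwise, and open diamonds are the fit without surrogate variables. *HSP82* lies farthest to the right at 0.55, *SBA1* and *CDC37* lie near 0, and the diamonds of *SBA1* and *CNS1* lie at -0.044 and 0.36.

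The edited gene was examined as a check of the labels, and it was called higher in the edited strain. *UBR1* had 162, 166, 179, 175 and 183 normalized CPM in the libraries of BY *UBR1* -469A>T, against 156, 154, 157, 134 and 142 in those of BY. The strains did not overlap on this scale, and did in TPM. The log2 fold change of *UBR1* was 0.21 with a standard error of 0.046 (edgeR adjusted p = 0.013). Leaving out BY replicate 5 gave an adjusted p of 0.11.

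*HSP82* differed most among the members. Its transcript had 893, 982, 964, 859 and 876 normalized CPM in BY *UBR1* -469A>T replicates 1 to 5, against 325, 579, 737, 617 and 844 in BY replicates 1 to 5. The lowest library of BY *UBR1* -469A>T stood just above the highest of BY, so the strains did not overlap (exact two-sided permutation test over the 10 libraries, p = 0.0079, the smallest that 5 against 5 allow). Of all transcripts, 1.54% were separated in this direction and 1.39% in the opposite one. The mean was 915 ± 54.7 in BY *UBR1* -469A>T and 620.3 ± 195 in BY (SD, n = 5 each), a log2 fold change of 0.55 with a standard error of 0.088 and a 95% interval of 0.35 to 0.74 (edgeR adjusted p = 0.0028). The BY libraries were spread over a 2.60-fold range, while those of BY *UBR1* -469A>T were within 1.14-fold of each other. BY replicate 1 was the low end of this range, and without it the log2 fold change was 0.37 (edgeR adjusted p = 0.036). The second surrogate variable of the fit had its largest weight, -0.76, in this library. The separation depended on the scaling. In TPM the libraries of BY *UBR1* -469A>T ran from 170.3 to 197 with a median of 182 and those of BY from 69.0 to 179 with a median of 128, so that the upper end of BY overlapped. With 0 and 1 surrogate variables the adjusted p of *HSP82* was 0.19 and 0.42.

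**Figure D2:**
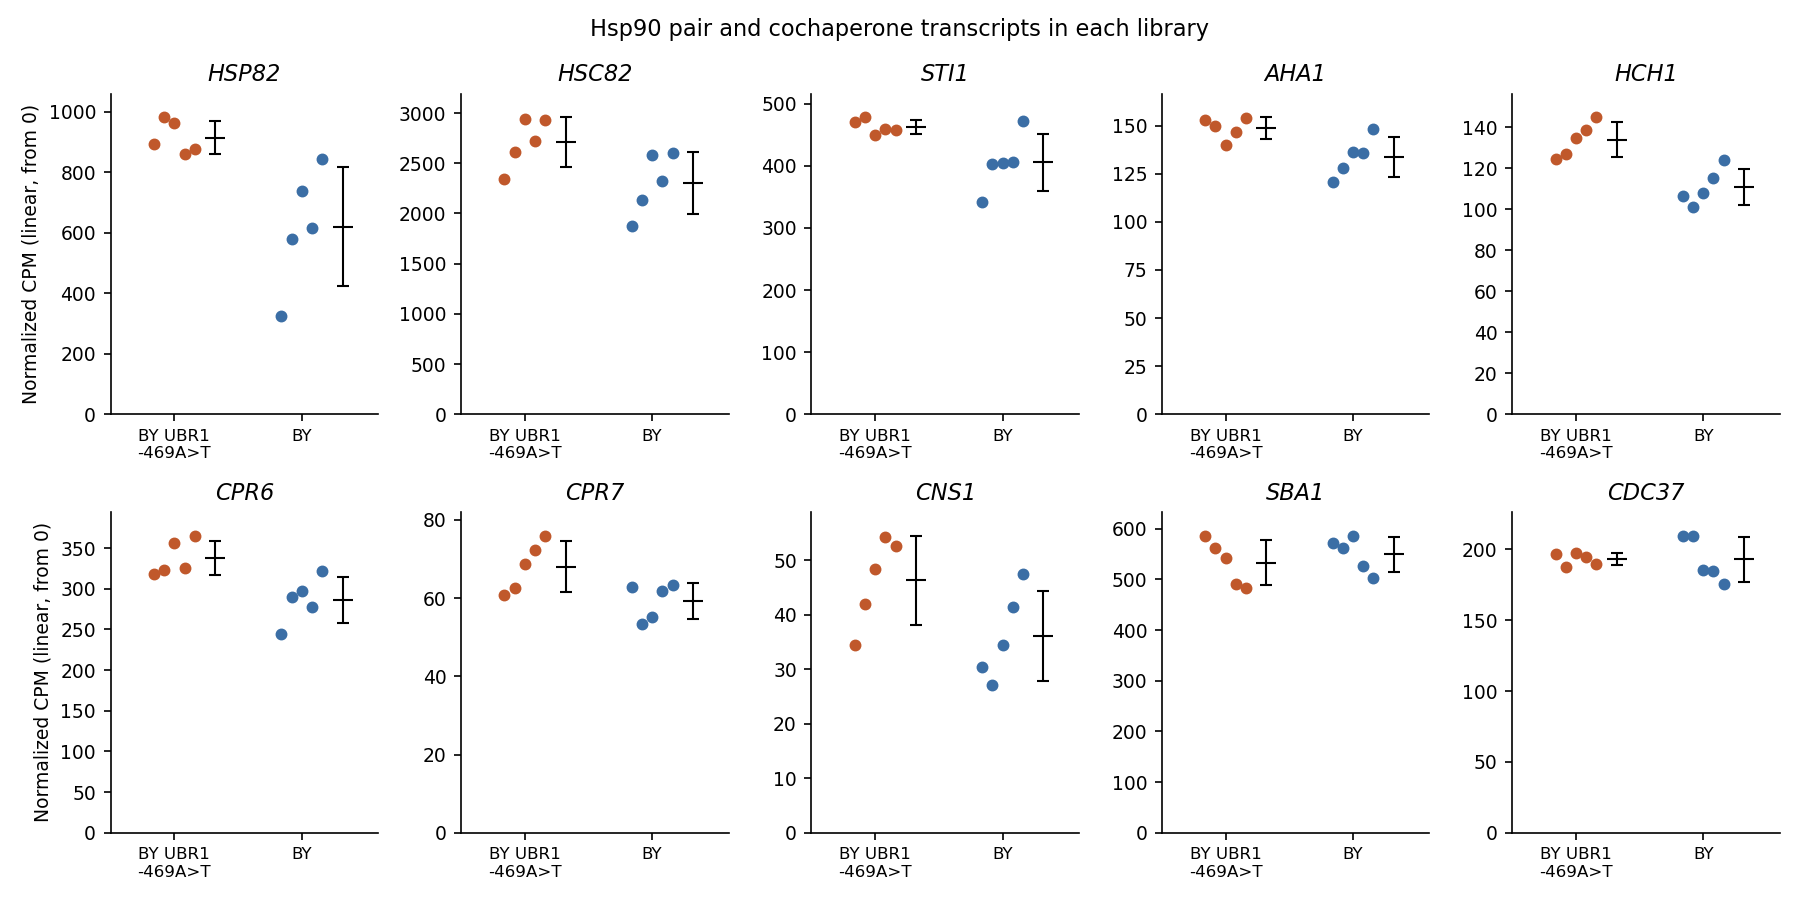
Normalized CPM of the 10 members, 1 panel each, on linear axes from 0. Points are libraries of BY *UBR1* -469A>T (orange, left) and BY (blue, right) with replicates 1 to 5 from left to right, and bars beside them give the mean and SD. *HSP82* and *HCH1* show no overlap between the strains, *SBA1* and *CDC37* overlap widely, and BY replicate 1 is the lowest library for 5 of the 10 members.

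*HSC82*, the more abundant gene of the pair, was not called. It had 2339, 2609, 2936, 2724 and 2934 normalized CPM in BY *UBR1* -469A>T, against 1875, 2130, 2579, 2321 and 2604 in BY. The strains overlapped, since BY replicates 3 and 5 exceeded BY *UBR1* -469A>T replicate 1. The log2 fold change was 0.15 with a standard error of 0.063 and a 95% interval of 0.015 to 0.29 (edgeR adjusted p = 0.12), and the exact permutation test of its log2 CPM gave an unadjusted p = 0.040. Over 21 alternatives *HSC82* was called in 6 and its log2 fold change ran from 0.085 to 0.24. Among fits with a library left out, it was called without BY replicate 3 (0.20, edgeR adjusted p = 0.033) and without BY *UBR1* -469A>T replicate 1 (0.21, adjusted p = 0.056). It was 0.085 without BY replicate 1 (adjusted p = 0.26) and 0.090 without BY replicate 5 (adjusted p = 0.57).

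The pair was also examined as a unit, since a read placed in the wrong copy leaves its sum as it was. The summed pair had 3623 normalized CPM in BY *UBR1* -469A>T and 2922 in BY, a log2 fold change of 0.24 with a standard error of 0.065 (edgeR adjusted p = 0.029). In TPM the pair summed to 663, 725, 780, 714 and 789 in BY *UBR1* -469A>T, against 470, 596, 724, 614 and 734 in BY. *HSP82* supplied 27.5%, 27.2%, 24.6%, 23.9% and 22.9% of the pair's TPM in BY *UBR1* -469A>T, against 14.7%, 21.3%, 22.1%, 20.9% and 24.4% in BY. BY replicate 1 was low and BY replicate 5 lay among the libraries of BY *UBR1* -469A>T. The mean share was 25.2% ± 2.05 in BY *UBR1* -469A>T and 20.7% ± 3.60 in BY (SD, n = 5 each), a difference of 4.55 percentage points (exact two-sided permutation test, p = 0.024). This test lost the threshold of 0.05 without BY *UBR1* -469A>T replicate 1 or replicate 2 (3.98 and 4.05 points, exact p = 0.056 each). The summed TPM of the 8 cochaperones was 143% to 174% of that of the pair in BY *UBR1* -469A>T, and 152% to 229% in BY, with the highest value in BY replicate 1.

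**Figure D3:**
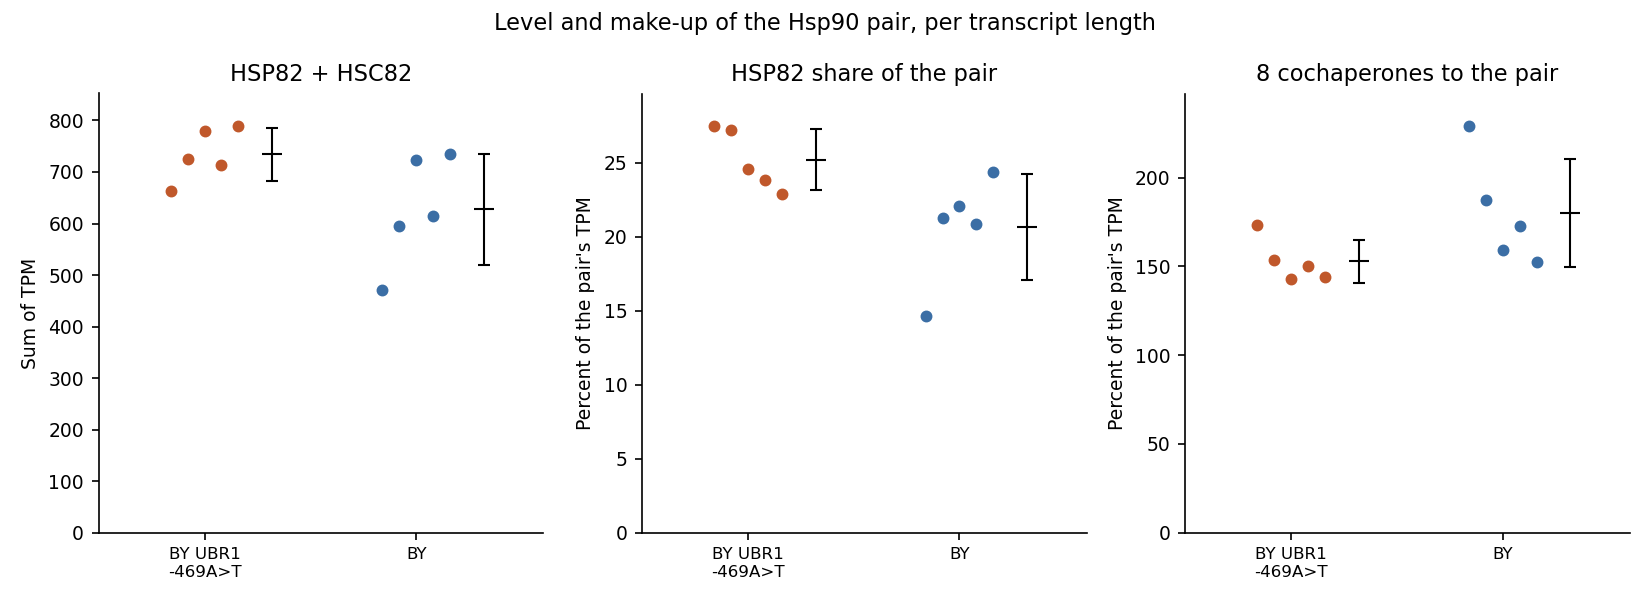
Level and make-up of the Hsp90 pair per transcript length. From left to right the panels give the summed TPM of *HSP82* and *HSC82*, the percent of that sum that *HSP82* supplied, and the summed TPM of the 8 cochaperones as a percent of the pair, for BY *UBR1* -469A>T (orange, left) and BY (blue, right), with each library as a point and bars for mean and SD. The *HSP82* share averaged 25.2% in BY *UBR1* -469A>T and 20.7% in BY, with BY replicate 1 lowest at 14.7%.

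*STI1* encodes the adaptor that bridges Hsp70 and Hsp90 and passes clients between them. It had 471, 478, 450.4, 459 and 457 normalized CPM in BY *UBR1* -469A>T, against 342, 403, 405, 406 and 473 in BY. The libraries of BY *UBR1* -469A>T were close together, and 1 BY library, replicate 5, lay inside their range. The difference on the log2 scale was 0.17 with a standard error of 0.040 (edgeR adjusted p = 0.017). It missed the threshold, at an adjusted p of 0.103, without BY *UBR1* -469A>T replicate 2.

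*AHA1* and *HCH1* encode the related activators of the Hsp90 ATPase, Hch1 matching the amino-terminal domain of Aha1. *HCH1* had 125, 127, 135, 139 and 145 normalized CPM in BY *UBR1* -469A>T, against 106, 101, 108, 115 and 124 in BY. As for *HSP82*, every library of BY *UBR1* -469A>T was above every library of BY, here by a margin of less than 1 CPM (exact permutation test, p = 0.0079). Its log2 fold change was 0.20 with a standard error of 0.028, the smallest standard error of the 10 members (edgeR adjusted p = 0.0014). In TPM and in upper-quartile scaled CPM the strains overlapped. *AHA1* had 153, 149.8, 140, 147 and 154 normalized CPM in BY *UBR1* -469A>T, against 121, 128, 136, 136 and 148 in BY. Only the highest BY library reached into the range of BY *UBR1* -469A>T. Its log2 fold change was 0.13 with a standard error of 0.037 (edgeR adjusted p = 0.041), and this call was lost without BY replicate 1, 2, 4 or 5 or BY *UBR1* -469A>T replicate 1 or 2, with adjusted p of 0.11 to 0.16.

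*CPR6* and *CPR7* encode cyclophilins that bind the carboxy-terminal end of Hsp90. *CPR6* had 318, 324, 356, 326 and 365 normalized CPM in BY *UBR1* -469A>T, against 244, 289.9, 298, 277 and 322 in BY. The strains met only where BY replicate 5 exceeded BY *UBR1* -469A>T replicate 1. Its log2 fold change was 0.19 with a standard error of 0.054 (edgeR adjusted p = 0.035). *CPR7* had 60.8, 62.6, 68.7, 72.4 and 76.0 normalized CPM in BY *UBR1* -469A>T, against 62.9, 53.3, 55.2, 61.7 and 63.4 in BY. Its strains overlapped in the lower libraries of BY *UBR1* -469A>T, and the log2 fold change was 0.12 with a standard error of 0.034 (edgeR adjusted p = 0.040). Both calls were lost without BY replicate 5, with adjusted p of 0.17 for *CPR6* and 0.22 for *CPR7*. They were also lost without BY *UBR1* -469A>T replicate 2 (0.11 and 0.15) or replicate 3 (0.12 and 0.11), and that of *CPR7* without BY replicate 2 (0.16) or BY *UBR1* -469A>T replicate 4 (0.16).

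*CNS1* encodes an essential cochaperone with the same kind of Hsp90-binding repeats as Sti1. It was the least abundant member, with 34.5, 42.0, 48.3, 54.3 and 52.7 normalized CPM in BY *UBR1* -469A>T, against 30.4, 27.1, 34.5, 41.4 and 47.5 in BY. Both strains spread widely and overlapped. Depth did not limit it, since its lowest estimated count was 2173. The log2 fold change was 0.17 with a standard error of 0.057 (edgeR adjusted p = 0.065), against 0.36 without surrogate variables (adjusted p = 0.22) and 0.031 with 1 (adjusted p = 0.88). *CNS1* also had the largest weight of the members on the main axis of variation among replicates of the same strain, at place 476 of 5986 by size, with *HSP82* at 1609, *STI1* at 4041 and *AHA1* at 4320. That axis held 60.4% of the variance within strains, and its part in the strain difference of *CNS1* was not tested. Leaving out BY replicate 2, BY replicate 5, or BY *UBR1* -469A>T replicate 2, 3 or 4 ended the call, with log2 fold changes of 0.11 to 0.12.

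*SBA1* and *CDC37* were the members with no call in any fit. Sba1 slows the ATPase and holds Hsp90 closed on its client, and Cdc37 is the essential adaptor that brings protein kinases to Hsp90. *SBA1* had 586, 563, 543, 491 and 483 normalized CPM in BY *UBR1* -469A>T, against 572, 563, 586, 525 and 502 in BY. The strains overlapped, although replicates 4 and 5 of BY *UBR1* -469A>T lay below every BY library. The mean was lower in BY *UBR1* -469A>T at 533 ± 44.8 than in BY at 549.6 ± 34.7. The fitted log2 fold change was 0.027 with a 95% interval of -0.057 to 0.11 (edgeR adjusted p = 0.68), and it was -0.044 without surrogate variables. *CDC37* had 197, 188, 198, 194 and 190 normalized CPM in BY *UBR1* -469A>T, against 209.7, 209.2, 185, 185 and 175 in BY. The libraries of BY *UBR1* -469A>T fell inside the range of BY. The log2 fold change of *CDC37* was 0.041 with a 95% interval of -0.035 to 0.12 (edgeR adjusted p = 0.46). These intervals leave room for changes of the size fitted for *CPR7* in *CDC37*, but not for one of the size fitted for *HSP82* in either gene.

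Across the members, the spread between cultures was wider in BY for 8 of 10 and wider in BY *UBR1* -469A>T for 2. In BY, replicate 1 was the lowest library for 5 members and replicate 5 the highest for 8. In BY *UBR1* -469A>T, replicate 1 was the lowest for 5 and replicate 5 the highest for 4. The same libraries thus stood at an end of the range for several members at once. By scaling, the number of members with a higher mean in BY *UBR1* -469A>T was 9 of 10 in TMM CPM and 8 in upper-quartile CPM, in CPM of library totals and in TPM. The number without overlap was 2 in TMM CPM, 1 in upper-quartile CPM, and 0 in CPM of library totals and in TPM. Of all transcripts, 1.54% were separated in this direction in TMM CPM. That share was not computed for the other scalings, so the fall in the count cannot be weighed against it.

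The members were also split by whether they are known targets of Hsf1. Beside 13.8% of all transcripts, 5 of the 6 known targets were called higher, with a median log2 fold change of 0.18, and of the other 4 members 2 were called higher, with a median of 0.078. A list of 13 further genes known as Hsf1 targets, chosen with earlier results of these data known, was set beside them. All 13 were called higher in BY *UBR1* -469A>T in the fit with 2 surrogate variables, with a median log2 fold change of 0.37. Leaving out BY replicate 1 or BY replicate 5 left 11 of the 13 called, and leaving out BY *UBR1* -469A>T replicate 2 left 10. The share called among all transcripts in these fits was 27%, 6.79% and 8.35% in the same order. The largest changes were those of *BTN2*, a sorting factor for misfolded proteins, at 1.28 (edgeR adjusted p = 0.00014), and *APJ1*, an Hsp40 cochaperone, at 0.67. The smallest were those of *MBF1*, a transcriptional coactivator, at 0.12 (adjusted p = 0.045) and *YDJ1*, the major Hsp40 of the cytosol, at 0.17. Libraries of the strains did not overlap for 3 of the 13, *SSA2*, *SIS1* and *FES1*, beside 1.54% of all transcripts separated in this direction. Without surrogate variables 0 of the 13 were called by edgeR, although 7 had an unadjusted p under 0.05. A single surrogate variable gave 1 call. All 13 fold changes were positive in these fits too. *HSF1* itself was not called, at a log2 fold change of -0.052 (adjusted p = 0.42), with 66.2 to 75.2 normalized CPM in BY *UBR1* -469A>T and 69.8 to 80.3 in BY. Upstream of the 13 genes, 8 held a 3-unit heat shock element in 500 bases, compared with 2 of the 10 members.

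Other parts of the Hsp90 system were called at shares near the 24.8% of all transcripts. Of 6 further cochaperones and partners of the R2TP complex, which assembles large complexes with Hsp90, 1 was called: *PPT1*, a phosphatase that acts on Hsp90, at a log2 fold change of 0.11 (edgeR adjusted p = 0.085). The median of the 6 was 0.038. Of 10 known clients of Hsp90, 2 were called. *SLT2*, the kinase of the cell wall integrity pathway, was higher in BY *UBR1* -469A>T at 0.17 (adjusted p = 0.013), and *GCN2*, the kinase that senses amino acid shortage, was lower at -0.084 (adjusted p = 0.092). The median of the clients was -0.025. Client genes were measured as transcripts, and the state of their proteins was not.

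The transcripts most like *HSP82* across the 10 libraries were found by the root mean square difference of log2 CPM, each centered on its own mean, among 5139 transcripts with a mean of at least 10 normalized CPM. The 5 closest outside the members were *ROQ1* at 0.138, *FES1* at 0.139, *CUR1* at 0.160, *ZPR1* at 0.168 and *HAP4* at 0.175. For comparison, a flat line stood at 0.462 and the median transcript at 0.472. *FES1* encodes an Hsp70 nucleotide exchange factor, *CUR1* a sorting factor, *ZPR1* a zinc finger protein and *HAP4* an activator of respiratory genes. *ROQ1* encodes a protein known to redirect Ubr1 toward misfolded substrates. Its transcript had 58.8, 72.1, 70.1, 64.1 and 53.1 normalized CPM in BY *UBR1* -469A>T, against 19.0, 33.4, 42.2, 40.4 and 55.2 in BY. As with *HSP82*, BY replicate 1 was far below the other libraries, and here BY replicate 5 exceeded 1 library of BY *UBR1* -469A>T. Among the members, *HSC82* was closest to *HSP82* at 0.307 and place 92, followed by *CPR6* at 0.322 and place 153, *STI1* at 0.326 and place 176, *CNS1* at 0.353, *HCH1* at 0.363 and *AHA1* at 0.368. *CPR7* at 0.434 was close to the flat line, and *SBA1* at 0.501 and *CDC37* at 0.508 were farther than it.

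**Figure D4:**
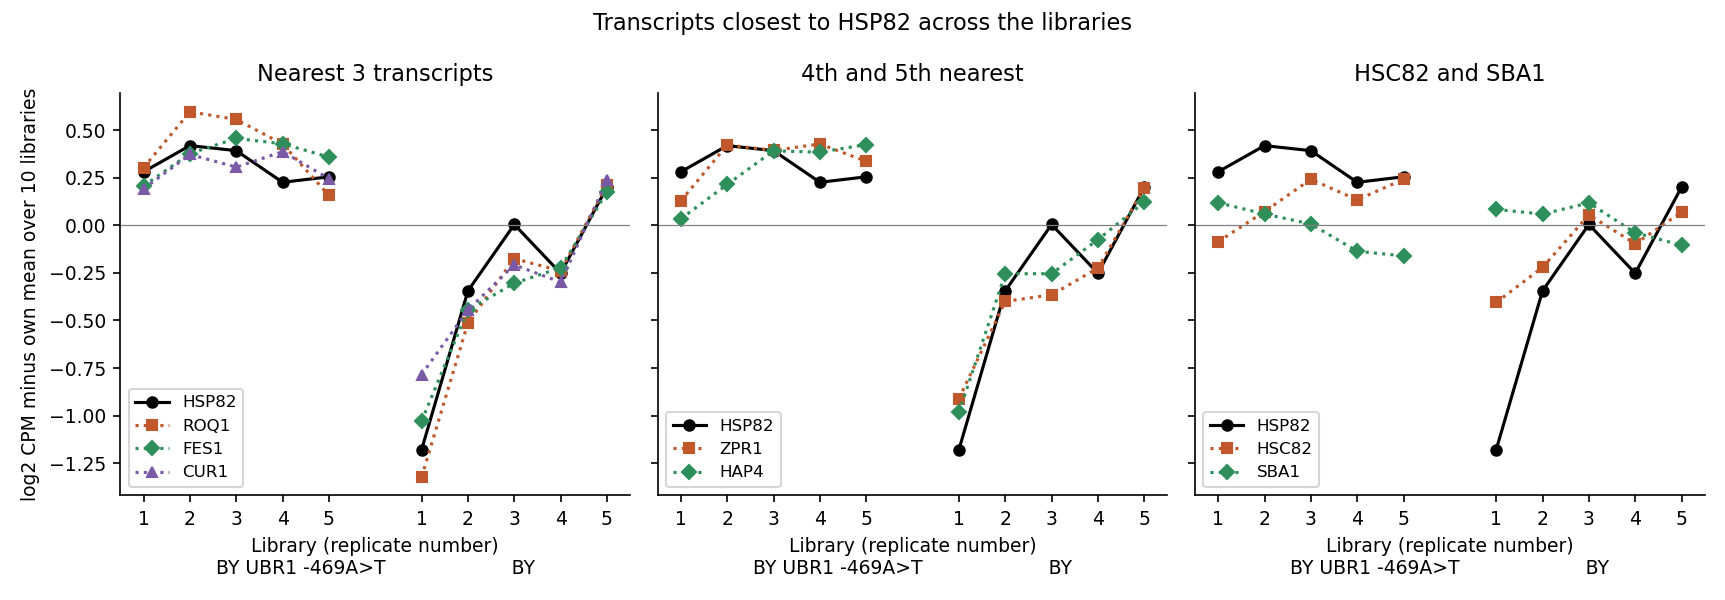
Transcripts closest to *HSP82* across the libraries. The vertical axis is log2 CPM minus each transcript's own mean over 10 libraries, and the horizontal axis gives replicates 1 to 5 of BY *UBR1* -469A>T and then of BY. *HSP82* (black, solid line) is drawn with the 3 nearest transcripts, with the next 2, and with *HSC82* and *SBA1*; the low point of *HSP82* at BY replicate 1 is shared by the 5 nearest transcripts and is shallower in *HSC82*, and *SBA1* does not follow it.

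Facts of the libraries bear on all values above. Estimated counts summed to 71103539 to 97644549 in the libraries of BY *UBR1* -469A>T and to 72105131 to 94432416 in those of BY, so counting error was small for every member. Genes of mating type a were expressed in both strains, as for *MFA1* with 2033 to 2466 TPM in BY *UBR1* -469A>T and 2175 to 3151 in BY, and those of mating type alpha were at 2.02 TPM or less. BY4741 is known to lack working copies of *HIS3*, *LEU2*, *MET17* and *URA3*. Transcripts of all of these were counted in both strains. *URA3*, for example, had 84.7 to 96.8 TPM in BY *UBR1* -469A>T and 90.7 to 105 in BY. This goes against that name but does not separate the strains. The paper lists BY as mating type a with *HIS3* and *HO* deleted, and with histidine as its auxotrophy. *HO* had 6.88 to 16.5 TPM in BY *UBR1* -469A>T and 8.11 to 15.9 in BY. *HIS3* had 59.1 to 93.6 TPM in BY *UBR1* -469A>T and 64.4 to 77.2 in BY. The exact background was not settled.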

How the data were processed

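RNA was sequenced from 5 cultures of each strain, grouped by the genotype in the labels. The authors trimmed reads with fastp and assigned them with Kallisto to the transcripts of Ensembl release 96. The estimated counts that the authors deposited are not normalized, and were rounded. The authors also deposited TPM, which is scaled within a library and served here for levels and the *HSP82* share. Depth was 71103539 to 97644549 estimated counts per library.

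Transcripts with at least 10 estimated counts and an effective length of at least 1 in every library were kept (5986 of 6612). The main test was edgeR 4.0.16 in R 4.3.3 (TMM, quasi-likelihood, 2 surrogate variables from svaseq of sva 3.50.0), with Benjamini-Hochberg adjusted p under 0.1 over all transcripts. In the study, DESeq2 modeled the extraction batch and optical density besides 2 surrogate variables. The batch and density of each culture were not used here. At the same threshold the study reported far fewer transcripts than the 1484 called here. DESeq2 with 2 surrogate variables, without batch and density, called 1596 here. The cause of this excess was not tested, so the calls here may be more than the study's model would give. The study also filtered by a transcript integrity number, which was not applied here. A standard error is the log2 fold change over the square root of F. Single values were compared with exact two-sided permutation tests, whose p values are unadjusted. Alternatives were DESeq2 1.42.0, 0, 1 and 3 surrogate variables, a replicate block, other minimum counts and scalings, and leaving out each library. Between replicates of a strain the chi-square was 67.5 to 544 per degree of freedom, far beyond sampling noise. No library thus repeated the sequencing of another of its strain. The chi-square cannot tell separate cultures from separate libraries of 1 culture.

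Named are the 10 members, *UBR1*, *HSF1*, the 5 transcripts most like *HSP82*, strain marker genes, and of each list at most the 2 largest and 2 smallest called changes, besides *SSA2*, *SIS1* and *FES1*, named after their values were seen as the 3 without overlap. The members and lists were chosen with earlier results of these data known. Sequences, positions and motifs are from the R64 reference, to which 5929 transcripts matched, 95.1% with the same length. The procedure was also run on counts simulated from its own fit with 2 surrogate variables. Such counts cannot show how many surrogate variables are right for the real data.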

Additional observations from a re-analysis of the deposited data

How the results depend on the processing

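The number of members called was 7 in the reported fit, 0 with 0 or 1 surrogate variables, 8 with 3, and 2 to 8 when 1 library was left out. It was 2 without BY *UBR1* -469A>T replicate 2, 3 without BY replicate 5, and 4 without BY *UBR1* -469A>T replicate 3 or BY replicate 2. Surrogate variables estimated from normalized counts, a fit chosen after seeing the data, gave 6. All transcripts called numbered 1484 in the reported fit, 0 and 10 with 0 and 1 surrogate variables, 2178 with 3, and 407 to 1619 with libraries left out. Upper-quartile scaling turned the split of 828 higher and 656 lower calls into 721 and 790. The share of *HSP82* in the pair differed by 3.05 to 5.47 percentage points with libraries left out. The log2 fold change of *SBA1*, 0.027 in the reported fit and not called, was -0.044 without surrogate variables. The cause of these differences was not tested.

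The labels number the replicates 1 to 5 in both strains without saying what a number shares. Same-numbered libraries deviated together with correlations of 0.30, 0.54, -0.0058, 0.49 and 0.69. The numbers were not taken to pair the cultures because 1 of the 5 was not above 0.1. The main axis within strains nevertheless rose with the number in both strains, apart from BY replicates 1 and 2. Replicates 1 to 5 lay at -18.1, -7.30, 3.84, 6.37 and 15.2 in BY *UBR1* -469A>T, and at -8.57, -12.2, -4.50, 5.71 and 19.6 in BY. What the numbers share was not tested, and tests without a replicate block take no account of it. A replicate block without surrogate variables called 8 members and 2374 transcripts, and the block with 2 surrogate variables called 1 and 34. Under the block *SBA1* was at -0.046 without and -0.022 with surrogate variables, and *CNS1* at -0.043 with them. *HSC82* was at 0.24 under the block alone (edgeR adjusted p = 0.013) and at 0.22 with 2 surrogate variables as well (adjusted p = 0.20). Without surrogate variables, calls were thus made only under this block, and with strain as the only term 0 transcripts were called. For the *HSP82* share, sign flips over the 5 numbers left 4.55 points with an exact p = 0.13, but 5 numbers cannot give less than 0.0625, so this test could not reach 0.05.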
